A study of Mus musculus with 2 samples.

Results

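The cells described here are 147 class II-positive cells, picked by counts of a few genes as candidate dendritic cells of the injured mouse carotid artery. A barcode, the tag that stands for 1 droplet, was kept if it held at least 300 genes and at most 15% of its UMIs (unique molecular identifiers, counts of single RNA molecules) in mitochondrial genes. From the kept barcodes the rule took those with at least 5 UMIs over H2-Aa, H2-Ab1, H2-Eb1 and Cd74, at least 1 UMI of an entry gene (Cd209a, Flt3, Ccl17 or Ccr7) and no UMI of Cd79a, Ms4a1, Col1a2, Pecam1 or Lyve1. These cells are called members below. The rule found 75 among 6739 kept barcodes of the control library and 72 among 7712 of the knockout library, which is 1.11% (95% interval 0.876 to 1.39%) and 0.934% (0.731 to 1.17%). The log2 ratio of these shares, knockout over control, was -0.25, with a counting interval from -0.72 to 0.21. All intervals here cover counting error only.

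The study asked what endothelial connexin 43 does during repair of the vessel lining. Both libraries came from carotid arteries taken 18 hours after a ligation injury, 1 library for each genotype. Control mice (CDH5 Cre- Cx43fl/fl) carried the floxed connexin 43 gene, Gja1, without Cre. The EC-Cx43-KO mice (CDH5 Cre+ Cx43fl/fl) carried the same floxed gene and an inducible Cre under the endothelial Cdh5 promoter, so the knockout was designed for endothelial cells and not for leukocytes. Carotids of each genotype were taken without perfusion, opened lengthwise, digested only briefly to favour the inner lining, pooled by condition after digestion and frozen before sequencing. The number of animals per pool, their age and the agent that induced Cre were not given in the sources used here. With 1 library per genotype no difference between them has a replicate check, genotype cannot be told apart from the pool of mice, and no test was made.

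Dendritic cells take up antigen in tissues and present its peptides to T cells on class II molecules, whose α and β chains are encoded by H2-Aa, H2-Ab1 and H2-Eb1 and are escorted by the invariant chain Cd74. Conventional type 2 cells (cDC2) often carry C-type lectins such as Cd209a, Mgl2 and Clec10a, whereas type 1 cells (cDC1) are known by Xcr1, Clec9a and the transcription factor Irf8, and both depend on the growth factor receptor Flt3. On maturation a dendritic cell gains Ccr7, the receptor that guides it to lymph nodes, the actin bundler Fscn1 and the chemokine Ccl22, which, like Ccl17, attracts cells bearing Ccr4. In arteries such cells are known mainly from the adventitia and from the subendothelial layer.

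The libraries were of similar depth, with medians of 4483 and 4590 UMIs per barcode, and 3761 control and 4160 knockout barcodes had a UMI of Ptprc, the pan-leukocyte gene Cd45. The described cells were deeper, at medians of 8971 and 9286.5 UMIs, and summed to 708861 and 791612 UMIs. Ptprc was seen in 73 of the 75 and 69 of the 72. Between the libraries 17 barcode sequences were shared, of which 1 was a described control cell. Gja1, the targeted gene, stood at 7.05 CPM (UMIs per 1000000 of the summed UMIs, interval 2.29 to 16.5) in the described control cells and at 6.32 CPM (2.05 to 14.7) in the knockout ones, 5 UMIs in each. In kept barcodes with at least 2 UMIs of Pecam1 and Cdh5 and none of Ptprc, the control library had 84.8 CPM (77.9 to 92.2) and the knockout library 73.8 CPM (67.3 to 80.8), so Gja1 RNA was still counted there, and whether these 3′ tags lie inside the deleted part was not given in the sources used here.

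Class II UMIs chose the cells, and they varied widely within each library. The lowest control cell had 5, the median 166 and the highest 757 UMIs over the 4 class II genes, against 5, 129.5 and 782 in the knockout library. The ranges overlapped almost fully. Cd74 carried the most UMIs, 7099 and 6753, followed by H2-Aa with 3174 and 2699, H2-Ab1 with 2554 and 2570 and H2-Eb1 with 2495 and 2528. Among these 4 genes H2-Aa had the lowest log2 ratio, -0.39 (-0.47 to -0.32), and H2-Ab1 and H2-Eb1 stood at -0.15 and -0.14. All these lay within 1.5-fold, the size used here to call a gene higher or lower (0.58 on the log2 scale).

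H2-Aa and H2-Eb1 share the Y box CTGATTGG, 1 of the conserved elements through which class II promoters are known to act, and the stretches before their start sites are shown because these transcripts define the cells. The sequences are the 220 bases before the RefSeq start (GRCm38.p6), read 5′ to 3′ on the gene's strand, at chr17:34287824-34288043 (minus strand) and chr17:34305647-34305866 (plus strand), with the Y box in capitals.
H2-Aa: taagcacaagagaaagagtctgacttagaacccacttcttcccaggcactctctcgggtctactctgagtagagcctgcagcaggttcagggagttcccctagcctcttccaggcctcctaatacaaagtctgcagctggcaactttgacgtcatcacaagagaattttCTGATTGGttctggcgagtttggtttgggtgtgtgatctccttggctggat
H2-Eb1: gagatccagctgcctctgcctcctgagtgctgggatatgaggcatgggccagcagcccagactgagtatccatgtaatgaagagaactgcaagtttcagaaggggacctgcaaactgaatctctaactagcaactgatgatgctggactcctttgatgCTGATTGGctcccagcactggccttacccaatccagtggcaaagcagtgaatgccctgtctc
The box began 51 bases before the start of H2-Aa and 62 bases before that of H2-Eb1. Searched on both strands, it was present in 3.67% of 32851 promoters of this length, and in 4 of the 17 listed class II presentation genes with a promoter in the table. A match is a description of the letters only.

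The entry genes admitted the cells unevenly. Cd209a, a lectin receptor of the DC-SIGN family, was seen in 36 control and 36 knockout cells, with medians of 4 and 5 UMIs among the positive cells and maxima of 62 and 41. Flt3 was seen in 39 and 46 cells, but at a single UMI in 23 of them in each library. Ccl17 was seen in 20 and 12 cells and Ccr7 in 10 and 4. A single UMI over all 4 entry genes admitted 22 control and 26 knockout cells. Cd209a was the only entry gene of 17 and 18 cells, Flt3 of 20 and 28, Ccl17 of 7 and 4, and Ccr7 of 5 and 1.

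The exclusion genes removed more cells than the rule kept. Of 191 control and 227 knockout barcodes that passed the class II and entry conditions, 80 and 107 had a UMI of Pecam1, an adhesion molecule of endothelial cells that leukocytes also carry, and 62 and 72 had a UMI of the B cell gene Cd79a. Without the Pecam1 condition the rule would have held 108 and 121 cells. Of barcodes with at least 2 Cd209a UMIs, 53 for the control and 68 for the knockout mice, 30 and 23 became members, while 17 and 26 had a Pecam1 UMI. The rule also left out class II-rich cells for want of an entry UMI. Among barcodes with at least 100 class II UMIs and no Cd79a or Ms4a1 UMI, 45 of 143 control and 41 of 155 knockout barcodes were members, and 62 and 64 of the others had no UMI of any entry gene.

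The label of a Cd209a and class II-high dendritic cell described some of these cells and not others, since Cd209a was seen in 36 members of each library. Zbtb46, a transcription factor typical of conventional dendritic cells, was seen in 20 control (26.7%) and 17 knockout cells (23.6%), against 1.90% and 1.56% of the other Ptprc-positive barcodes, whose median depth was 4827.5 and 4967 UMIs. In barcodes with neutrophil markers, which should lack Zbtb46, it was seen in 0.881% and 0.592% at median depths of 2664.5 and 2612.5 UMIs. Fewer than 20 class II UMIs were found in 14 control and 15 knockout members, and none of these had a Zbtb46 UMI. Their monocyte genes summed to 11346 and 12786 CPM, against 5334 and 5165 CPM in members with 20 or more, and 8 and 11 of them were admitted by a single entry UMI. At the threshold itself, 5 control and 5 knockout members had 5 or 6 class II UMIs with monocyte sums of 9926 and 11288 CPM, and just outside it 4 and 7 barcodes with 3 or 4 class II UMIs had 12429 and 12665 CPM. By these sums the low end of the rule is better called class II-low, monocyte-gene-rich cells with an entry UMI than dendritic cells. This does not hold for every cell. The monocyte-list genes Ccr2 and Csf1r were seen in 9 and 7 of the 14 control cells and in 13 and 13 of the 15 knockout cells. Shallow control cells of 1958, 1750, 2256 and 1101 UMIs had neither gene, but 11, 8, 9 and 3 UMIs of Bach2 and 2, 3, 3 and 3 UMIs of Wdfy4. Whether these are cells of the B lineage was not tested. Myeloid genes that dendritic cells share with monocytes and macrophages were common. Lyz2, the lysozyme gene, was seen in 78.7% and 86.1% of members against 68.2% and 68.0% of the other Ptprc-positive barcodes, Csf1r, the receptor for the macrophage growth factor, in 61.3% and 65.3% against 42.1% and 44.7%, and the Fc receptor Fcgr1 in 53.3% and 61.1% against 43.4% and 45.5%. Members were deeper, at medians of 8971 and 9286.5 UMIs, and these shares were not matched for depth. By CPM, the macrophage and monocyte lists, which both hold Csf1r and Fcgr1, were lower in members than in the others. The T and NK cell list summed to 299 and 152 CPM in members and to 281 and 304 CPM in the others. In members 1 gene of that list, the interleukin 7 receptor gene Il7r, gave 210 of its 212 control and 83 of its 120 knockout UMIs. No member had a UMI of Cd3e or Cd3d (0 of 75 and 0 of 72 cells, with intervals up to 4.80% and 4.99%). The neutrophil list summed to 580 and 504 CPM, against 9115 and 9099 CPM in the others. The B cell list summed to 113 and 44.2 CPM, against 361 and 435 CPM in the others, and its genes Cd79a and Ms4a1 are excluded by the rule.

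**Figure D1:**
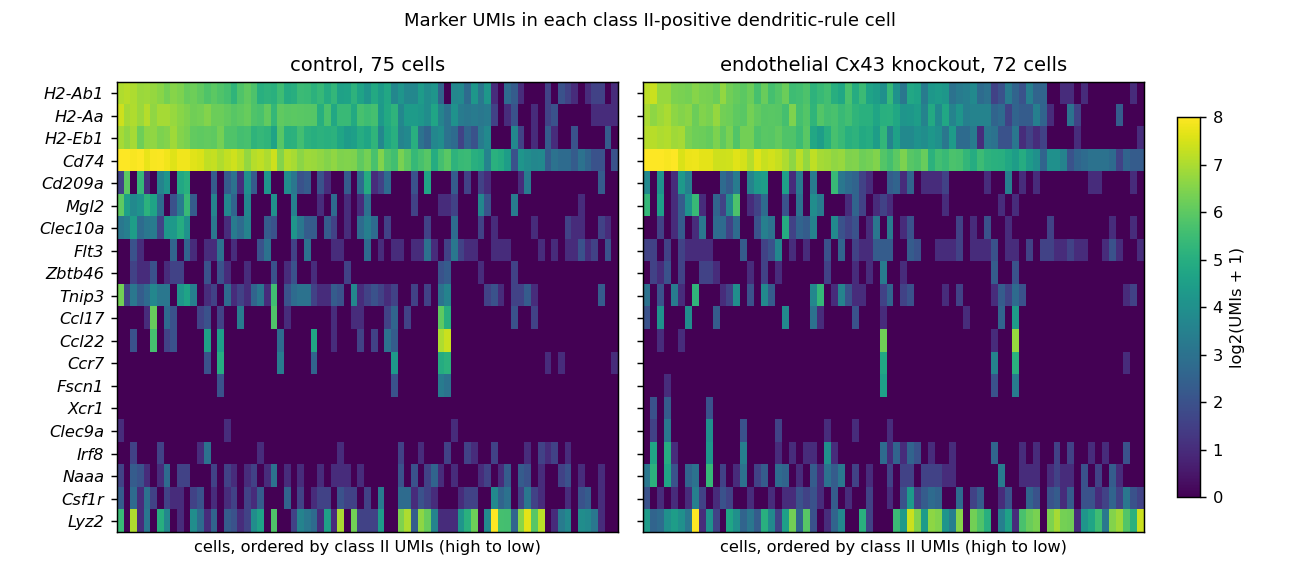
Each column is 1 described cell and each row 1 gene, coloured by log2(UMIs + 1), with the 75 control cells on the left and the 72 knockout cells on the right, ordered by class II UMIs. The lectin genes Cd209a, Mgl2 and Clec10a lie mostly in the class II-rich cells, Lyz2 extends into the class II-poor ones, and the cells with several Ccr7 UMIs hold no Cd209a.

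Against the other Ptprc-positive barcodes (3688 control and 4091 knockout) the described cells were set apart by antigen presentation genes and by lectins. Since the cells were chosen on these counts, this is a description with no test. Of 2475 genes with at least 50 member UMIs in each library, 118 were at least 2-fold higher in both, which is 4.77%. Cd209a stood at 529 CPM (477 to 585) in control members and 340 CPM (300 to 383) in knockout members, and a UMI of it was seen in 1.14% and 1.54% of the other barcodes. Ccl17 stood at 372 and 111 CPM against 7.13 and 4.53 CPM. Mgl2, a galactose-binding lectin, was at 491 and 321 CPM against 29.4 and 31.5 CPM.

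Beyond the genes of the rule, the 15 genes with the largest ratio in both libraries included H2-DMa, H2-DMb1 and H2-DMb2, the chains of the class II peptide-loading editor. H2-DMb1 was the steadiest of them, with log2 ratios of 3.79 for the control and 3.85 for the knockout cells. Kmo, an enzyme of tryptophan breakdown, was 3.87 and 3.33 higher, and Gpr171, a G protein-coupled receptor, 3.00 and 3.14 higher. The lectin-like receptor Klrb1b was 4.15 and 3.03 higher and Klrd1, better known from natural killer cells, 3.38 and 3.01 higher. Ciita, the master regulator of class II transcription, stood at 93.1 and 51.8 CPM against 5.72 and 7.56 CPM. Tnip3, an inhibitor of NF-κB signalling, stood at 491 and 248 CPM against 37.8 and 35.1 CPM.

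**Figure D2:**
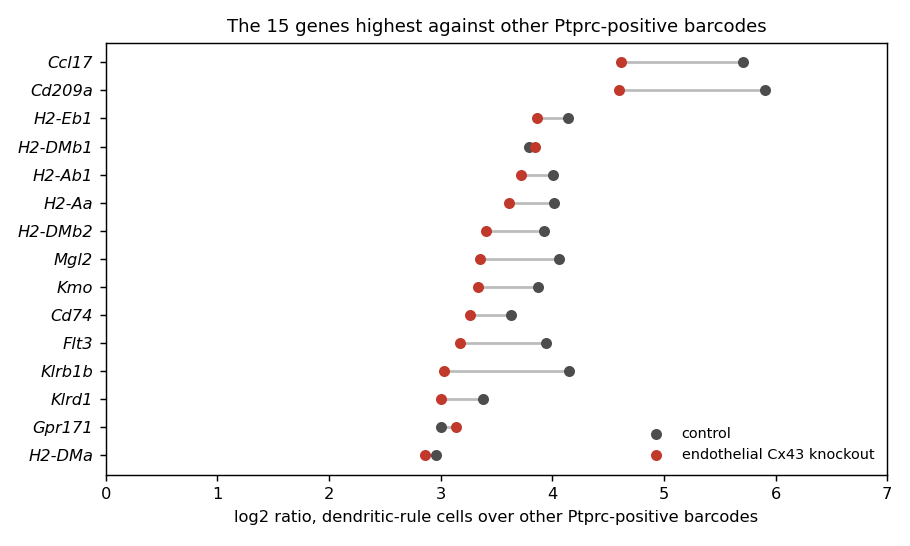
Log2 ratio of summed CPM in the described cells over other Ptprc-positive barcodes, for the 15 genes with the largest ratio in both libraries; grey points are the control and red points the knockout library. Cd209a and Ccl17 lie farthest right, at 5.90 and 5.71 in the control and 4.60 and 4.62 in the knockout library.

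As gene lists, the general dendritic cell genes summed to 1890 and 1833 CPM in the described cells against 637 and 653 CPM in the others. Macrophage genes ran the other way, 2789 and 2482 CPM against 8247 and 8495 CPM, as did monocyte genes with 6065 and 6499 CPM against 10564 and 11542 CPM. The cDC2 list, which also holds genes that monocytes use, differed less, 6805 and 5203 CPM against 5580 and 4937 CPM. Both dendritic cell lists hold an entry gene, so their sums in members are in part set by the rule. Cd209a gave 529 and 340 CPM of the cDC2 sums in members, and Flt3 134 and 123 CPM of the general sums. The class II-high barcodes outside the rule (98 control and 114 knockout) lay between for macrophage genes, at 5147 and 3808 CPM, and for general dendritic cell genes, at 1404 and 1545 CPM. The class II presentation list did not set members apart from these barcodes, which were themselves chosen on class II UMIs. It stood at 27853 and 24324 CPM in members and at 26602 and 26035 CPM in them.

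Ccr7 or Ccl22 was seen in 18 of 75 control members, 24.0% (14.9 to 35.3%), and in 6 of 72 knockout members, 8.33% (3.12 to 17.3%). The log2 ratio of the shares was -1.53, with an interval from -2.77 to -0.28. Ccr7 is itself an entry gene of the rule. Among members admitted by Cd209a, Flt3 or Ccl17 the shares were 13 of 70 and 5 of 71, at a log2 ratio of -1.40 (-2.81 to 0.01). In the other Ptprc-positive barcodes a UMI of either gene was seen in 3.47% and 2.98%, a log2 ratio of -0.22 (-0.57 to 0.13). Most of these had Ccr7, seen in 3.04% and 2.76%, a ratio of -0.14 (-0.51 to 0.23). Ccl22 was seen in 0.597% and 0.244% of them, a ratio of -1.29 (-2.36 to -0.21). In members the Ccl22 ratio was -1.53 (-2.91 to -0.14), so a lower Ccl22 share was not particular to members. Barcodes with neutrophil markers, which should lack both genes, had 1.27% and 0.338% with either, a ratio of -1.91 (-3.52 to -0.30). In the class II-high barcodes outside the rule the shares were 12 of 98 (12.2%) and 10 of 114 (8.77%). Their log2 ratio was -0.48 (-1.63 to 0.67), and 62 and 64 of them had no entry UMI and so no Ccr7. After every barcode was thinned to 2000 UMIs the member shares were 12 of 71 (16.9%) and 3 of 72 (4.17%), with 4 shallower control cells and no knockout cell left out. When cells with Pecam1 UMIs were let in, an alternative added with the values known, the log2 ratio was -0.92 (-1.73 to -0.11).

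The broad share holds cells of different kinds. Both genes were seen in 7 control and 3 knockout members, at a log2 ratio of -1.16 with a counting interval from -3.06 to 0.73. Ccl22 alone was seen in 8 and 2 members and Ccr7 alone in 3 and 1, each of the latter at a single UMI. Ccl22 summed to 441 control and 186 knockout UMIs, of which the Ccr7-positive members held 372 and 184. Ccl17 was less bound to Ccr7: 159 of 264 control and 67 of 88 knockout UMIs were in members with no Ccr7 UMI.

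The double-positive cells were the same members that had at least 2 Ccr7 UMIs. In the control library their Ccr7 counts were 34, 30, 29, 19, 9, 5 and 3 UMIs and their Ccl22 counts, in the same order, 164, 21, 128, 4, 6, 26 and 23. In the knockout library the Ccr7 counts were 33, 26 and 11 and the Ccl22 counts 107, 76 and 1. No cell of either set had a Cd209a UMI or a Y-linked UMI. Il7r, the interleukin 7 receptor chain, was seen in all of them, at 1 to 22 UMIs per control cell and 6 to 13 per knockout cell. Fscn1 was seen in 4 of the 7 control cells, at 3 to 9 UMIs, and in all 3 knockout cells, at 9, 22 and 3. The mature dendritic cell list summed to 24388 and 37457 CPM in these cells, against 5761 and 3927 CPM over all members, and the monocyte list to 588 and 171 CPM. The mature list includes Ccr7 and Ccl22, on which these cells were picked, so its sum is in part set by the choice. Of that sum Ccr7 gave 2106 and 2997 CPM and Ccl22 6072 and 7877 CPM. Over all kept barcodes, members or not, at least 2 Ccr7 UMIs together with Ccl22 or Fscn1 were seen in 14 control and 4 knockout barcodes, 0.208% (0.114 to 0.348%) and 0.0519% (0.0141 to 0.133%).

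**Figure D3:**
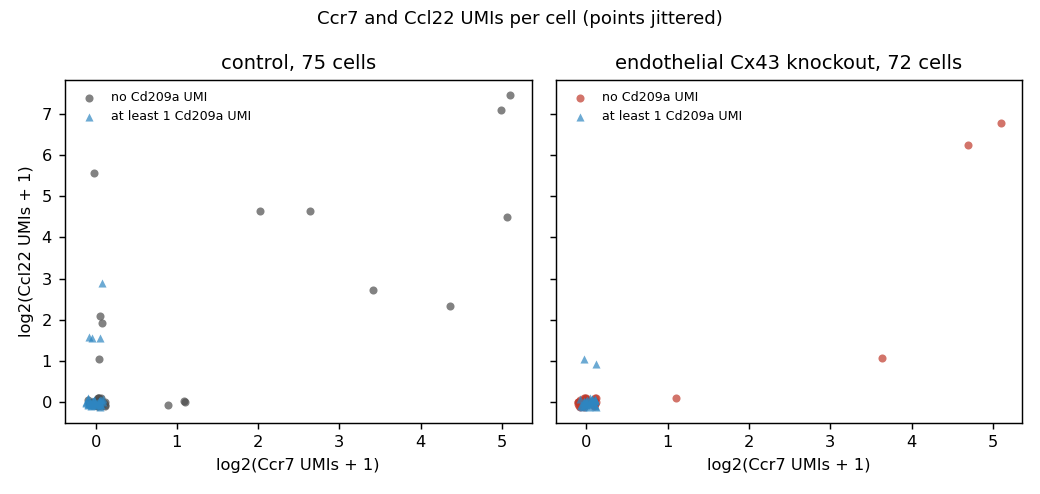
Ccr7 (x axis) and Ccl22 (y axis) UMIs of each described cell on a log2(UMIs + 1) scale, with the control library on the left and the knockout library on the right; blue triangles are cells with a Cd209a UMI and points are jittered. The 7 control and 3 knockout cells with both genes lie to the right, none with Cd209a, while Ccl22-only cells lie along the left edge.

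Cells with the cDC1 receptors ran in the opposite direction. At least 2 UMIs of Xcr1, a chemokine receptor, and Clec9a, a receptor for dead cells, were seen in 0 of 75 control members, with an interval up to 4.80%, and in 5 of 72 knockout members, 6.94% (2.29 to 15.5%). Their Xcr1 counts were 3, 4, 3, 0 and 0 and their Clec9a counts 2, 8, 15, 3 and 2 UMIs. None had a Cd209a UMI, and all had at least 340 class II UMIs. Clec9a summed to 3 control and 33 knockout UMIs, a log2 ratio of 3.30 (1.63 to 5.65), and Xcr1 to 0 and 10 UMIs. Over all kept barcodes the same count of at least 2 UMIs was met by 12 control and 18 knockout barcodes, a log2 share ratio of 0.39 (-0.66 to 1.44). Barcodes that also had at least 5 class II UMIs numbered 4 and 10.

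The cDC1 list of 12 measured genes (at least 20 UMIs over both libraries) had a median log2 ratio of 1.20, with 10 genes higher by 1.5-fold and none lower. Among all 7068 genes measured the same way, 10.6% were higher and 14.2% lower, and the median was -0.06. Irf8 counted 31 control and 143 knockout UMIs (2.05, interval 1.48 to 2.66), Naaa, a lysosomal lipid amidase, 82 and 218 (1.25) and Wdfy4, which serves cross-presentation, 90 and 154 (0.62). Cadm1, an adhesion molecule, was seen with 0 and 20 UMIs, and 50% of the latter lay in 1 cell. Its log2 ratio was 2.58 with the control taken at 3 UMIs, and its counting interval began at 2.14. Without the 5 cells the list's median was 0.38, with 2 of 8 genes higher, and Irf8 stood at 0.90.

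One of the 5 cells also held most of the cell division RNA of all members. It had 203 of the 276 mitosis-list UMIs of the knockout members, among them 26 of Top2a, whereas the next cell had 16 mitosis-list UMIs and the highest control cell 5. The mitosis list had a median log2 ratio of 2.57, with 6 of 6 measured genes higher, which was 0.72 when the top cell of each gene was left out of each library. DNA replication genes were higher in 5 of 9, at a median of 1.06, and 90 and 65 of their 376 knockout UMIs lay in 2 cells. Without the Pecam1 condition the medians were 0.24 for mitosis and -0.015 for DNA replication.

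Between the libraries, members were compared over 2752 genes with at least 100 UMIs. At the 1.5-fold size 139 genes were higher in the knockout library (5.05%) and 263 lower (9.56%), and the median was -0.08. The 10 highest named genes were Cxcl10, Ccl12, Rsad2, Irf8, Isg15, Ifit1, Ifi205, Ly6c2, Trf and Spp1, of which 5 belong to the interferon response list. The 10 lowest were Plxdc2, Zbtb18, Bach2, Ccl17, Gmds, Il7r, Ggta1, Bcl11a, Ccl22 and Ramp3.

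Of the lower genes, Plxdc2, a plexin-domain membrane protein, counted 184 control and 54 knockout UMIs, a log2 ratio of -1.93 (-2.39 to -1.48). Bach2, a transcriptional repressor of lymphoid and myeloid cells, counted 152 and 49 UMIs (-1.79, -2.29 to -1.32) and was spread over 40 and 32 cells. It stood at 214 and 61.9 CPM in members, and at 136 and 127 CPM in the other Ptprc-positive barcodes. Zbtb18, a zinc-finger repressor, counted 76 and 24 (-1.82) and Bcl11a, a factor of dendritic cell development, 79 and 33 (-1.42). The B cell list counted 80 and 35 UMIs in members, and the part of B cell RNA in the ratios of Bach2 and Bcl11a was not tested. Ccl17 counted 264 and 88 UMIs (-1.74, -2.11 to -1.39) and Ccl22 441 and 186 (-1.40, -1.66 to -1.15), but single cells held 26.5% and 22.7% of Ccl17 and 37.2% and 57.5% of Ccl22. Il7r counted 210 and 83 (-1.50), and in the cells with at least 2 Ccr7 UMIs it reached 996 and 1370 CPM. The ratios of Ccl17 and Ccl22 thus rest on few cells. Ccl22 was seen in 15 and 5 cells, with medians of 6 and 1 UMIs among them, Ccl17 in 20 and 12 with medians of 2.5 and 4.5, and Bach2 had medians of 3 and 1 UMIs in its positive cells. When cells with Pecam1 UMIs were let in, Bcl11a stood at -0.44, within 1.5-fold.

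The mature dendritic cell list had 10 of 27 measured genes lower and none higher, at a median of -0.55, against 14.2% lower and 10.6% higher among all genes, to which the cDC2 and NF-κB counts compare as well. Among members with Y-linked UMIs and no Xist, 12 control and 24 knockout cells, the medians of this list and of the NF-κB list below had the opposite sign, 0.42 and 0.12. Pdcd1lg2, the checkpoint ligand PD-L2, was lower at -1.41 (-2.22 to -0.65), and the co-stimulatory genes Cd86, Cd80 and Cd83 stood at -0.41, -0.56 and -0.32, within 1.5-fold. The cDC2 list had 8 of 16 lower and 1 higher, at a median of -0.49. Clec10a counted 272 and 161 UMIs (-0.92), Cd209a 375 and 269 (-0.64) and Mgl2 348 and 254 (-0.61), although the number of Cd209a-positive cells was 36 in both libraries. When cells with Pecam1 UMIs were let in, Cd209a stood at -0.34, Mgl2 at -0.37 and Tnip3 at -0.50, all within 1.5-fold, and 3 of the 16 cDC2 genes were lower. Under median-of-ratios scaling 5 of the 16 were lower. Clec12a, an inhibitory lectin, was the gene of that list that was higher, at 0.86. The NF-κB and TNF response list had 9 of 22 lower and 2 higher, at a median of -0.50, with Tnip3 at -0.99, Nfkb1 at -0.68 and Nfkb2 at -1.22. Tnip3 was seen in 49 control (65.3%) and 31 knockout members (43.1%).

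The class II presentation list as a whole had 3 of 18 genes lower and 1 higher, at a median of -0.17, shares near or under the 14.2% and 10.6% of all genes. The 3 lower ones were H2-Eb2, Ciita (-0.85, -1.45 to -0.26) and the lysosomal protease Lgmn (-0.89). Class I presentation had 3 of 23 higher and 2 lower, and Psmb9, a subunit of the immunoproteasome, was higher at 1.09 (0.60 to 1.59). Co-stimulation and checkpoint genes were lower in 4 of 15 and higher in none, complement genes lower in 5 of 11 and higher in none, and cytokine receptors lower in 3 of 24, or 12.5%. Against 14.2% of all genes, the cytokine receptor share is near the background and the other shares are above it. The complement genes that were lower included C1qa, C1qb and C1qc, which are macrophage genes, and 1 cell in each library held 44.2% and 57.8% of its C1qa UMIs. Migration and cytoskeleton genes, the largest list in UMIs, had 2 of 32 higher and 1 lower, at a median of 0.07.

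**Figure D4:**
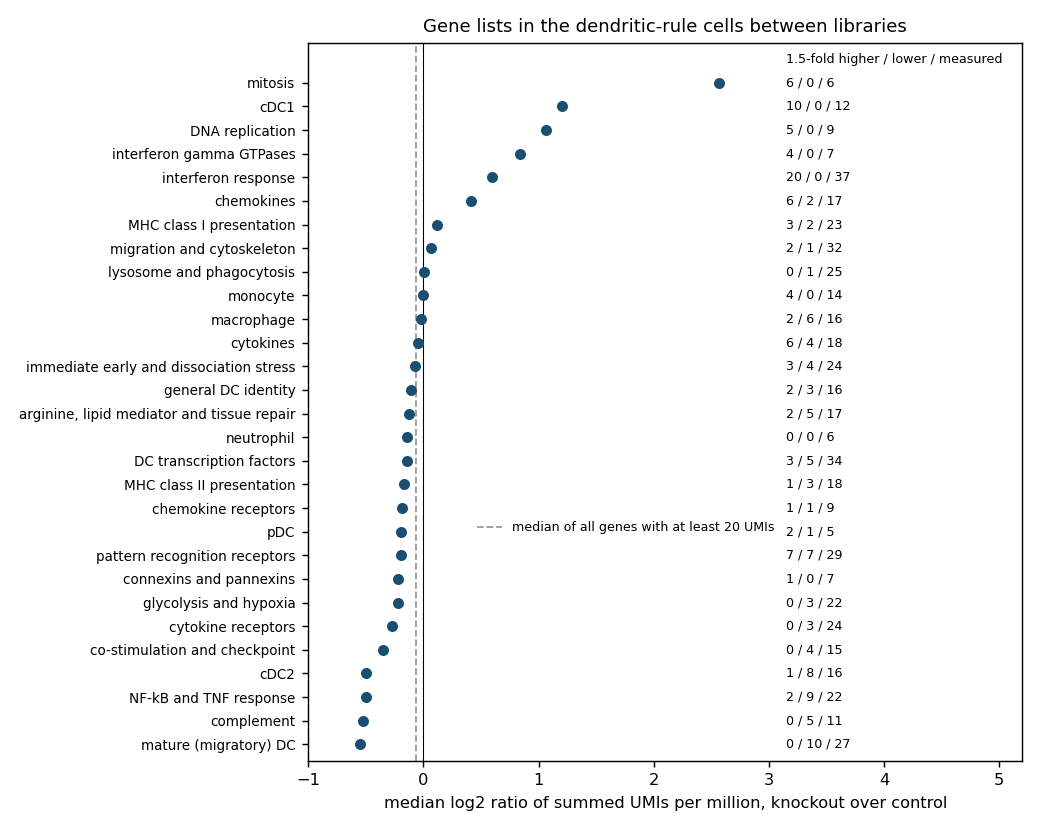
Median log2 ratio (x axis, knockout over control) of each gene list in the described cells, with the number of genes higher by 1.5-fold, lower by 1.5-fold and measured at the right; the dashed line is the median of all genes with at least 20 UMIs, -0.06. Mitosis, cDC1, DNA replication and both interferon lists lie to the right, and the mature, complement, NF-κB and cDC2 lists to the left.

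The interferon response list was higher in the knockout members, 20 of 37 genes by 1.5-fold and none lower, at a median of 0.60, against 10.6% higher and 14.2% lower among all genes. Without the members rich in macrophage markers 13 of 35 genes were higher and 2 lower, at a median of 0.35, and with ranked doublets removed 13 of 36 were higher and 1 lower, at 0.40. Its genes summed to 5351 CPM over control members and 8364 CPM over knockout members. Other Ptprc-positive barcodes had 4386 and 8208 CPM, so the level was not particular to these cells in either library. Cxcl10, a chemokine for Cxcr3-bearing cells, counted 8 control and 168 knockout UMIs, a log2 ratio of 4.23 (3.22 to 5.47). At 11.3 and 212 CPM it was lower in members of both libraries than in the other Ptprc-positive barcodes, which had 44.1 and 419 CPM. Rsad2, which encodes the antiviral enzyme viperin, counted 22 and 155 UMIs (2.66, 2.01 to 3.37), and 43.2% of the latter lay in 1 cell. Isg15, a ubiquitin-like protein, counted 67 and 243 (1.70, 1.30 to 2.11), Ifit1, which binds foreign RNA, 25 and 86 (1.62, 0.97 to 2.33) and Ifi205, of the interferon-inducible Ifi200 family, 81 and 272 (1.59, 1.23 to 1.96). Without the members with at least 2 Xcr1 or Clec9a UMIs, Ifi205 stood at 0.94. The median of the interferon response list was then 0.62, with 21 of 37 genes higher. Ifitm3, the most abundant gene of the list, stood at 1919 and 2705 CPM, a log2 ratio of 0.50. Interferon-induced GTPases were higher in 4 of 7 at a median of 0.84, among them Ifi47 with 21 and 61 UMIs (1.38).

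The promoters of these genes are shown because the genes were high together and because interferon-stimulated genes are known for a response element, searched here as GAAANNGAAA on both strands with overlapping matches allowed. The 220 bases before the RefSeq start (GRCm38.p6) are given 5′ to 3′ on the gene's strand, with each match in capitals, at chr5:92348890-92349109 (minus strand), chr4:156200819-156201038 (minus strand), chr19:34640669-34640888 (plus strand) and chr12:26456453-26456672 (minus strand).
Cxcl10: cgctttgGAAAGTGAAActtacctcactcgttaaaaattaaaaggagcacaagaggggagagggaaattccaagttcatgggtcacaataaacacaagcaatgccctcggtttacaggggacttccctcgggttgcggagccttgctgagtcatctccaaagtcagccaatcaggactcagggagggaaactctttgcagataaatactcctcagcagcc
Isg15: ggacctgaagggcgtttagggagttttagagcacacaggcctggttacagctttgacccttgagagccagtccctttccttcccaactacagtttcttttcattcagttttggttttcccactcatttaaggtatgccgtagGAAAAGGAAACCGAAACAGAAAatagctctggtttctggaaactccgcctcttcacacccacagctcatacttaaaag
Ifit1: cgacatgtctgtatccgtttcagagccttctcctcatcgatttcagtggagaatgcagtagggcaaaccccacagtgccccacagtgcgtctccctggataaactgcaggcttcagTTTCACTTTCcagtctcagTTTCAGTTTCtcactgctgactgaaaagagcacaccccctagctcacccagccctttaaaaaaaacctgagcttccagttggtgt
Rsad2: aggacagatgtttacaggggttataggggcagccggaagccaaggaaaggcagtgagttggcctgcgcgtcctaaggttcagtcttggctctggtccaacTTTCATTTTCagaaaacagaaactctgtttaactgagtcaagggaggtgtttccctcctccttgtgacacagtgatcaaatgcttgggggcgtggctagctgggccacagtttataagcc
Isg15 had 3 overlapping matches, between 78 and 66 bases before its start, and Ifit1 had 2 matches on the opposite strand, at 104 and 85 bases. Cxcl10 had 1 match at 213 bases and Rsad2 1 on the opposite strand at 120 bases. The element was present in 14 of 30 list genes with a promoter in the table, 46.7%, and in 2.55% of all promoters of this length. A match says only that the letters are there.

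The interferon signal was uneven among cells. Per member the list ranged from 337 to 24419 CPM in the control library, with a median of 4189, and from 0 to 29499 CPM with a median of 5759 in the knockout library. The ranges overlapped widely: 8 control and 20 knockout members exceeded 10000 CPM, and 4 knockout members lay above the highest control member. Cxcl10 reached at least 10 UMIs in 6 knockout and no control members, and these 6 held 161 of the 168 UMIs. Of the 6 cells 5 had a Cd209a UMI. Without them the list stood at 6822 CPM in the knockout members. Members were also sorted in turn by at least 2 UMIs of Ccr7, Ccl22 and Fscn1, then 2 of Xcr1, Clec9a and Wdfy4, then 5 of the macrophage markers C1qa, C1qb, C1qc and Adgre1, then 2 of Cd209a, Mgl2 and Clec10a. The list stood at 4842 and 2183 CPM in the first of these groups (14 and 3 cells) and at 5368 and 6366 CPM in the second (21 and 21 cells). It stood at 3861 and 10980 CPM in the macrophage-marker group (6 and 9 cells), at 6532 and 10495 CPM in the lectin group (22 and 27 cells) and at 4995 and 6784 CPM in the remaining 12 and 12 cells.

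Each library held cells of both sexes by their RNA, in different proportions. Xist, the X-inactivation RNA, was seen with no Y-linked UMI in 51 control and 35 knockout members, and Y-linked UMIs with no Xist in 12 and 24. Among Xist-only members the interferon list stood at 5523 CPM for control and 9218 CPM for knockout cells, with 22 of 36 genes higher, none lower and a median of 0.81. Among Y-only members it stood at 5546 and 6471 CPM, with 7 of 26 genes higher, 5 lower and a median of 0.0059. In other Ptprc-positive barcodes the medians were 1.43 for Xist-only and -0.33 for Y-only barcodes. Members with neither RNA, 11 and 12 cells, stood at 4074 and 9786 CPM. Whether the differences of Xist-only and Y-only cells are unequal was not tested, nor was the part of the cell mix in the pooled ratio.

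**Figure D5:**
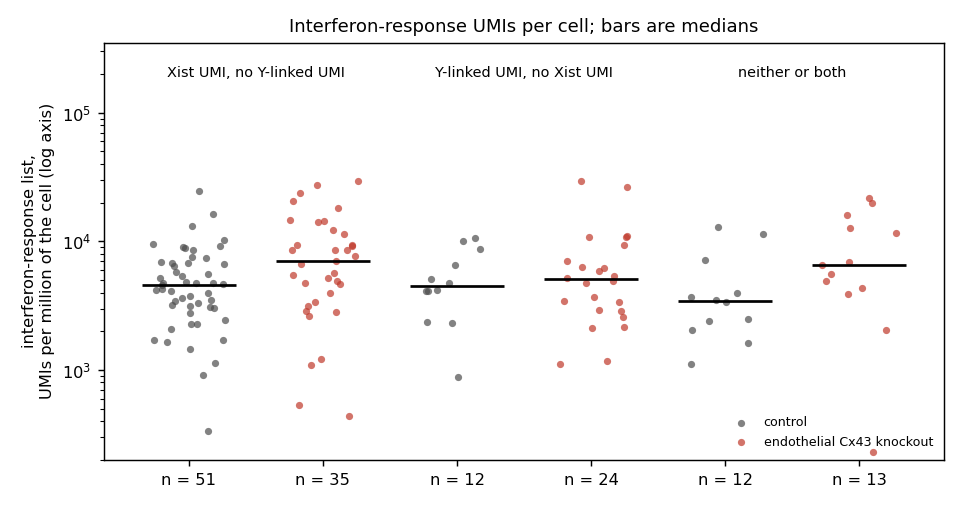
UMIs per 1000000 (CPM) of the interferon response list in each described cell (y axis, log scale), split by Xist and Y-linked UMIs, with control cells in grey, knockout cells in red and bars at the medians; 1 knockout cell with no such UMI is drawn at the lower edge. The Xist-only knockout cells have the higher median of that pair, and the cells of both libraries overlap in the Xist-only and in the Y-only split.

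Of 17 measured chemokines 6 were higher and 2 lower in the knockout members, against 10.6% and 14.2% of all genes, and the lower ones were Ccl17 and Ccl22. Ccl4, an inflammatory chemokine, counted 555 and 1010 UMIs (0.70, 0.55 to 0.86), and Ccl2, the main monocyte attractant, 731 and 1085 (0.41). Ccl12 counted 8 and 122 UMIs, but 68.0% of the latter came from 1 cell. Single cells also carried other large ratios. Spp1, the matrix protein osteopontin, counted 434 and 1163 UMIs with 53.1% of the latter in 1 cell, and all 171 knockout UMIs of Retnla, a gene of alternatively activated macrophages, lay in 1 cell. Among monocyte genes, whose sum was high in the class II-low members, 4 of 14 were higher and none lower. Ly6c2 counted 70 and 215 UMIs (1.46, 1.06 to 1.87) and Plac8 599 and 1052 (0.65). With at least 2 entry UMIs required, Ly6c2 stood at 0.12 and Spp1 at 0.40, both within 1.5-fold. The monocyte list summed to 6065 and 6499 CPM. Its part in the differences above was not tested.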

How the data were processed

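Single-cell 3′ RNA was measured in 2 libraries, 1 per group, so the design has no replicates. The deposited UMI counts per gene and barcode came from Cell Ranger 8.0.1 per the file headers; the submitters' processing notes add STAR and the build mm10. Both tables list 32285 genes, of which 40 shared a symbol with another and were kept apart by identifier.

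Groups were taken from the genotype labels. The members, the 37 gene lists and the rules were chosen with earlier results of these data known, so no count of list genes is independent support. Levels are UMIs per 1000000 summed UMIs (CPM) with exact Poisson 95% intervals, shares have exact Clopper-Pearson intervals, ratios of shares a log-normal (Katz) interval and log2 ratios exact conditional binomial intervals. A gene with fewer than 3 UMIs took 3. UMIs are counted molecules, and all intervals cover counting error only. Doublets were left in. The rule excludes Cd79a, Ms4a1, Col1a2, Pecam1 and Lyve1 only, so doublets with monocytes, neutrophils or T cells could be members. A ranking against simulated doublets, used as an alternative, would take out 3 control and 6 knockout members.

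Genes were named by a fixed rule: the 15 with the largest ratio to other Ptprc-positive barcodes, the 10 highest and 10 lowest between libraries (at least 100 UMIs and seen in at least 10% of members), the marker genes, and up to 5 abundant and up to 3 differing genes per list. Zbtb46, Fscn1, Xcr1, Clec9a and the cells described one by one were chosen after their values were seen, as were other list genes outside that rule. Barcodes with neutrophil markers had at least 5 UMIs of those genes. The ratio script was tested on simulated data. Promoter sequences are from RefSeq on GRCm38.p6. Computation used Python 3.11.15, pandas 2.3.3, SciPy 1.17.1, NumPy 2.4.6, matplotlib 3.10.9 and scikit-learn 1.9.0.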

Additional observations from a re-analysis of the deposited data

Results flagged for a closer look

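Members with Xist and no Y-linked UMI were set beside members with a Y-linked UMI and no Xist. A list was flagged if its medians in these splits had opposite signs and at least 1 reached 0.58 in size. Of 19 gene lists with at least 10 genes measured in both splits, 3 were flagged. Other lists had opposite signs at smaller medians, among them the mature dendritic cell list (-0.56 and 0.42) and the NF-κB list (-0.47 and 0.12). The macrophage list had a median log2 ratio, knockout over control, of 1.36 in the Xist-only members, with 9 of 12 genes higher by 1.5-fold and 1 lower, and of -1.84 in the Y-only members, with 0 of 11 higher and 8 lower. The monocyte list had medians of 0.72 (8 of 14 higher, 0 lower) and -0.36 (1 of 13 higher, 3 lower). The complement list, which shares C1qa, C1qb and C1qc with the macrophage genes, had medians of 0.61 (6 of 11 higher, 4 lower) and -0.89 (2 of 10 higher, 5 lower). The Y-only split holds 12 control and 24 knockout cells from 1 library each, and the difference between the splits was not tested.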

How the results depend on the processing

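No paired analysis was possible because each group has 1 library. There were 227 alternative values for the main counts, shares and list medians. Of these, 205 stayed within the counting interval of the main value, or within 1.5 times for counts, 21 moved and 1 reversed. For a list median the interval was taken from the middle gene of the list. Some alternatives could change little or nothing. A limit of 500 genes, for example, left the same 75 and 72 members. A change of sign was called reversed only where the main value was at least 0.58 in size. The mature and NF-κB medians, which changed sign in Y-only members, are therefore among the 21. Without the Pecam1 condition, chosen after seeing the data, the rule held 108 control (1.60%) and 121 knockout cells (1.57%), and the list medians were -0.015 for DNA replication, which reversed, 0.24 for mitosis and -0.31 for cDC2. With at least 2 entry UMIs the shares were 0.786% and 0.596%, with 46 knockout members. With 1 UMI of each gene required, 9.33% of control members had Ccr7 and Ccl22. With genes of at least 20 UMIs, 750 were higher and 1004 lower. The cDC1 median was 0.38 without the Xcr1 or Clec9a cells and 1.80 with at least 20 class II UMIs. The cDC2 median was -0.37 without those cells and -0.37 over genes with at least 100 UMIs, -0.36 in Xist-only and -0.24 in Y-only members. In Y-only members the medians were 0.0059 for interferon, 0.42 for mature and 0.12 for NF-κB genes. Without the top member of each gene mitosis stood at 0.72, and without the Xcr1 or Clec9a cells fewer than 3 of its genes were measured. Of 24 named genes past 1.5-fold, 24 kept their sign and 17 stayed past it under all 15 settings. The limits of 500 genes per barcode and of 20 UMIs per gene left these ratios as they were. Ratios of single genes were not computed in the Xist-only and Y-only splits. Free RNA was estimated at 5.51% and 5.10% of member UMIs. The number of members, 75 and 72, limits every share, and the causes of these shifts were not tested.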
